A study of Homo sapiens with 6 samples.

Results

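Integrins are receptors of an alpha and a beta chain that span the plasma membrane and hold a cell to its matrix. Which matrix protein is bound depends on the pair, as with collagens for alpha1beta1 and alpha2beta1, laminins for alpha3beta1 and alpha6beta4, and fibronectin for alpha5beta1. Inside the cell talin and the kindlins bind the beta tail and switch the receptor on, vinculin and zyxin tie the site to actin, and focal adhesion kinase, paxillin, p130Cas and the ILK, PINCH and parvin complex relay signals. Mammary basal epithelial cells are known for laminin receptors and for hemidesmosomes built on alpha6beta4. The genes described here are 32 integrin and focal adhesion genes, chosen by name with earlier results of these data known. They are 20 integrin subunit genes and 12 genes of the cytoplasmic machinery and of the integrin-bound tetraspanin CD151. Of these, 31 had at least 1 probe set naming that gene alone, among 19775 such genes on the array, and they had 94 of the array's 54613 probe sets other than controls. ITGB6 had 4 probe sets, each annotated to a second gene as well, and it was not analysed here.

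The samples were MCF10A cells, a non-tumorigenic human mammary epithelial line, stably transfected and selected with puromycin. In the shFRY group (10A-shFRY, 3 samples) the cells carried an shRNA that targets FRY, the human relative of Drosophila furry. In the control group (10A-CV, 3 samples) they carried a non-targeting shRNA. Both grew as monolayers in mammary epithelial medium with epidermal growth factor, insulin, hydrocortisone and pituitary extract, and RNA was taken before confluence. There was 1 selected clone per construct, and samples of a clone differed in passage. The p-values therefore rest on the spread between passages of a clone, and a difference between constructs cannot be told apart from a difference between clones.

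Values are log2 signals from 1-colour arrays normalized with RMA, and a difference of 1 is 2-fold. Sample medians were 3.02 to 3.06. FRY was lower in shFRY at all 4 of its probe sets, and 1 passed the threshold, 204072_s_at, with 2.88, 3.31 and 3.14 in shFRY samples, against 4.23, 3.55 and 3.81 in control samples (difference -0.75, SE 0.19, limma adjusted p = 0.0223). This call was lost without shFRY sample 1 or 3 or control sample 1 or 3 (limma adjusted p = 0.0712, 0.0502, 0.0650 and 0.0539). The epithelial markers KRT5 and EPCAM averaged 11.56 and 10.07 in shFRY, against 11.47 and 10.08 in control. At an adjusted p under 0.05 over all 19775 genes, 13.7% of genes rose and 16.0% fell. Of 9 measured epithelial markers 5 rose and 2 fell, among them KRT14 (2.92), EGFR (0.75) and CDH3 (0.63) higher and KRT8 (-0.93) lower. Of 8 fibroblast markers 1 rose (FAP, 0.74) and 2 fell (LUM, -3.94, and DCN, -2.79), of 7 leukocyte markers 1 fell, and of 8 endothelial and platelet markers 2 rose (TEK, 1.85, and PF4, 0.43) and 1 fell (KDR, -2.45). Below the array median in every sample were 3, 5 and 2 of these 3 lists. The summed signal of 8 fibroblast markers was 188 to 207 in shFRY and 292 to 310 in control (linear units). The same sum for 7 leukocyte markers was 35.1 to 35.9 in shFRY and 35.4 to 47.9 in control. For 8 endothelial and platelet markers it was 210 to 253 in shFRY and 277 to 289 in control. The 3' minus 5' difference of beta-actin, a measure of RNA length and amplification, was 2.88, 2.89 and 2.84 in shFRY and 2.33, 2.52 and 2.71 in control (exact two-sided permutation test, p = 0.1, with no smaller p possible for 3 against 3). The same difference of GAPDH was -0.10, -0.05 and -0.08 in shFRY and -0.08, -0.10 and -0.08 in control (exact two-sided permutation test, p = 0.4). The part of the beta-actin difference in the results was examined only by adding it to the fit as a covariate.

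Most integrin subunits and integrin activators were higher in shFRY cells, while the kinase and scaffold genes showed no call. At a limma adjusted p under 0.05 over all genes, 15 of the 31 genes rose, 1 fell and 15 did not pass. Over all 19775 genes, 29.8% passed, 13.7% higher and 16.0% lower. The median log2 difference was 0.33 for the 31 genes and 0.03 for all genes. The groups did not overlap for 22 of the 31 genes, against 44.2% of all genes. Above the median gene by mean signal this held for 18 of 22, against 6424 of all 9889 genes. Below it the counts were 4 of 9, against 2323 of 9886. Of the 31, 5 were called higher with an estimated log2 difference of at least 1, ITGB3, ITGA10, ITGB4, FERMT1 and ITGA3, against 3.42% of all genes. For ITGB4, FERMT1 and ITGA3 the 95% confidence interval reached below 1. All 5 were above the median gene by mean signal, where 589 of all 9889 genes met the same rule. Calls were more frequent among bright genes in general. Of the 22 genes above the median gene by mean signal 14 rose (63.6%), beside 21.3% of all genes above it, and of the 9 below it 1 rose (11.1%), beside 6.19% of all genes below it.

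**Figure D1:**
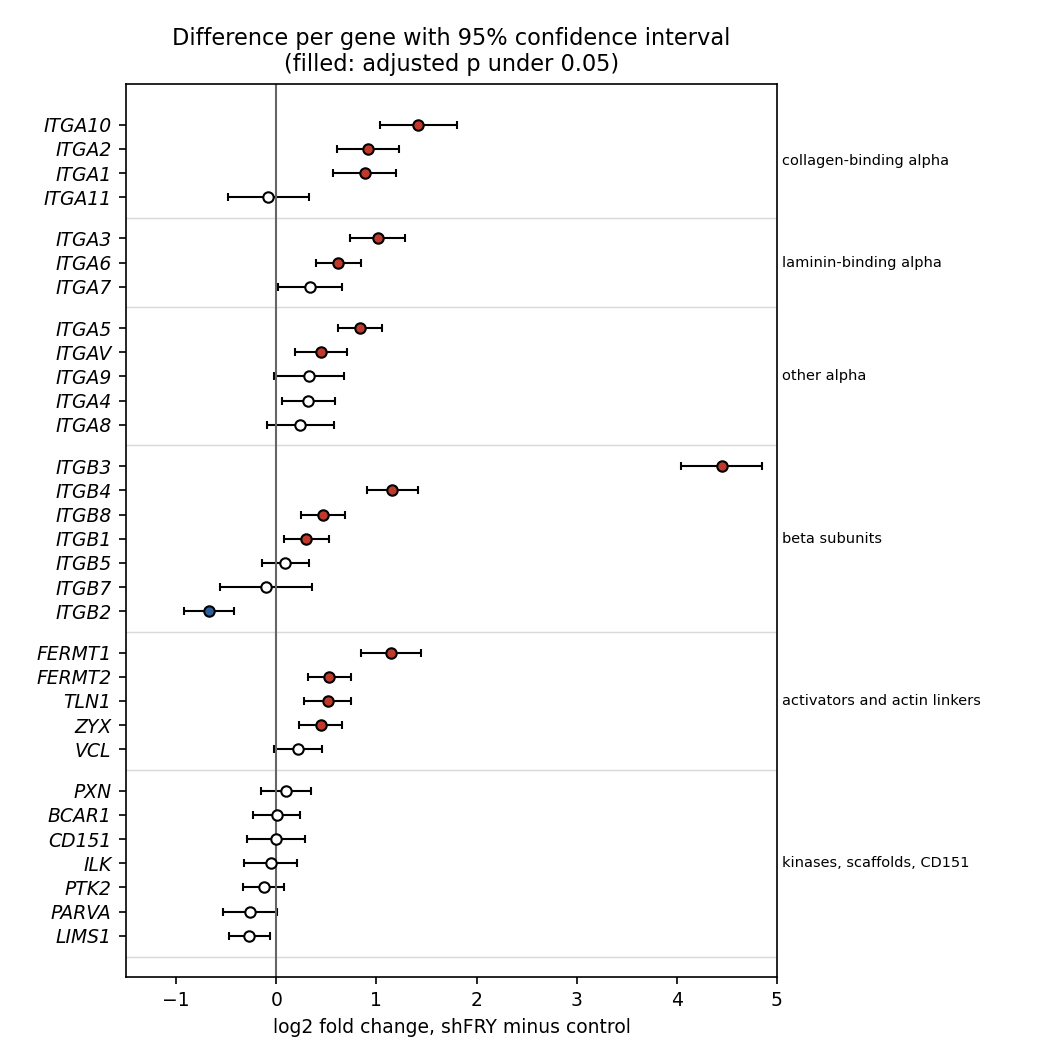
Log2 fold change of each of the 31 genes, shFRY minus control, on the x axis, with its limma 95% confidence interval, grouped by role down the page; filled points passed an adjusted p of 0.05. ITGB3 stands far to the right at 4.45, ITGB2 is the only filled point left of 0, and none of the 7 kinase, scaffold and tetraspanin genes is filled.

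ITGB3, the beta3 chain of the vitronectin receptor alphavbeta3 and of the platelet fibrinogen receptor, had the largest rise. At probe set 204627_s_at it had 6.50, 6.64 and 6.11 in shFRY samples, against 1.71, 1.98 and 2.22 in control samples. All shFRY samples lay far above the control samples, which were below the array median of 3.04. The log2 difference was 4.45 (SE 0.18, limma adjusted p = 2.73e-06). No linear fold is given, since no detection call was used and the control signals were not shown to be above background. Probe sets of the gene did not agree on the size: 204626_s_at rose by 2.34 and 204628_s_at by 1.46. The other 4 did not pass, with differences between -0.03 and 0.33, and averaged below the array median in both groups. At 204626_s_at the signals were 4.61, 4.83 and 5.01 in shFRY and 2.51, 2.61 and 2.33 in control, again with no overlap. With the mean of the 7 probe sets in place of the brightest the difference was 1.29 (limma adjusted p = 2.17e-05). Probe sets marked _s_at and _x_at can match more than 1 transcript or gene. Without them the dim 211579_at stood for ITGB3 (1.80 in shFRY, 1.82 in control), and the difference was -0.03 (limma adjusted p = 0.914). ITGAV, the alpha chain that pairs with beta3, beta5, beta6 and beta8, had 9.02, 9.08 and 9.07 in shFRY samples, against 8.41, 8.74 and 8.67 in control samples. It rose by 0.45 (SE 0.11, limma adjusted p = 0.0175), and its call was lost without shFRY sample 2 or control sample 1 (limma adjusted p = 0.0504 and 0.0525). The platelet partner of beta3, ITGA2B, averaged 4.34 in shFRY and 3.90 in control and did not pass (limma adjusted p = 0.0653), and the endothelial markers VWF (2.04 in shFRY, 1.99 in control) and CDH5 (2.50 in shFRY, 2.29 in control) were below the array median in both groups. PECAM1, which endothelial cells and platelets share, was above it, with means of 7.40 in shFRY and 7.54 in control, and did not pass (limma adjusted p = 0.354). Of the 8 endothelial and platelet markers, TEK rose (3.58 in shFRY, 1.73 in control, limma adjusted p = 0.00221), as did PF4 of platelets (3.28 in shFRY, 2.85 in control, limma adjusted p = 0.0105). KDR fell (3.35 in shFRY, 5.80 in control, limma adjusted p = 7.68e-05). The part of such cells in the ITGB3 signal was not tested.

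Of 3 laminin-binding alpha chains 2 rose, and the beta4 chain rose as well. ITGB4, which builds hemidesmosomes with alpha6, had 8.57, 8.48 and 8.27 in shFRY samples, against 7.34, 7.23 and 7.26 in control samples. Its rise was 1.16 (SE 0.11, limma adjusted p = 0.000171), and 3 further probe sets rose by 0.81 to 1.15. The fifth, 214292_at, was dim and stood at -0.18 with a limma adjusted p of 0.697 over all probe sets, and the mean of the probe sets gave 0.77. ITGA6, the only alpha partner of beta4, had 12.07, 11.96 and 11.90 in shFRY samples, against 11.29, 11.41 and 11.35 in control samples. It rose by 0.62 (SE 0.10, limma adjusted p = 0.00204), and its other probe set rose by 0.75. Both chains of alpha6beta4 were higher in every shFRY sample than in any control sample at these probe sets. Over all genes the groups were apart, in either direction, for 44.2%. ITGA3, the alpha chain of the laminin-332 receptor alpha3beta1, had 6.79, 6.77 and 6.50 in shFRY samples and 5.53, 5.72 and 5.75 in control samples, a rise of 1.02 (SE 0.12, limma adjusted p = 0.000478) at its single probe set. ITGA7, the laminin receptor chain of muscle, was dim, with means of 2.08 in shFRY and 1.74 in control (limma adjusted p = 0.107).

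The 3 collagen receptor chains that passed all rose, and the fourth, ITGA11, did not pass (-0.08, limma adjusted p = 0.786). ITGA10, first described as a collagen receptor chain of cartilage, had 6.14, 6.38 and 6.31 in shFRY samples, against 5.19, 4.82 and 4.55 in control samples (difference 1.42, SE 0.17, limma adjusted p = 0.000447). ITGA2, the chain of the main epithelial collagen receptor alpha2beta1, had 6.43, 6.42 and 6.47 in shFRY samples, against 5.67, 5.66 and 5.24 in control samples. It rose by 0.92 (SE 0.13, limma adjusted p = 0.00136), and its second probe set by 1.20. ITGA1, a second collagen receptor chain encoded nearby on chromosome 5, was dim throughout, with 2.70, 2.58 and 2.52 in shFRY samples and 1.60, 1.99 and 1.54 in control samples, and it rose by 0.89 (SE 0.14, limma adjusted p = 0.00185). A second probe set of ITGA1 rose by 0.59 and the other did not pass, and the mean of its probe sets gave 0.54. None of these 3 genes had overlapping groups, nor did any of the 16 called genes, and 44.2% of all genes had none either.

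Promoter sequence is shown for these 3 genes, which moved together, and for ITGA5 described next, as the 250 bases upstream of the annotated start in RefSeq, 5' to 3' on the gene's strand (GRCh38.p14). The windows are chr1:145910051-145910300 (minus strand) for ITGA10, chr5:52989102-52989351 (plus) for ITGA2, chr5:52787666-52787915 (plus) for ITGA1 and chr12:54419267-54419516 (minus) for ITGA5. Capitals mark matches on either strand to 3 motifs: AP-1 (TGANTCA), Sp1 (GGGCGG) and TEAD (GGAATG), none of which contains another.
ITGA10: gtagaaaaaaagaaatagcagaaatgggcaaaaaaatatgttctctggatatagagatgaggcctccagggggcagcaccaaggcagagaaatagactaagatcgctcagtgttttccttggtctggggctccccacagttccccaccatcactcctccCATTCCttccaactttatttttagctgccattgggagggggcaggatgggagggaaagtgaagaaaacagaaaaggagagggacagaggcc
ITGA2: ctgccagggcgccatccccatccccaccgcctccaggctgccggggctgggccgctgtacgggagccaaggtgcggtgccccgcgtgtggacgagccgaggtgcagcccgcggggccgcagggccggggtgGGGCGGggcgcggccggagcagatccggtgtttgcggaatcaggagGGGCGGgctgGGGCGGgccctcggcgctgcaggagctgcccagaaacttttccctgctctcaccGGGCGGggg
ITGA1: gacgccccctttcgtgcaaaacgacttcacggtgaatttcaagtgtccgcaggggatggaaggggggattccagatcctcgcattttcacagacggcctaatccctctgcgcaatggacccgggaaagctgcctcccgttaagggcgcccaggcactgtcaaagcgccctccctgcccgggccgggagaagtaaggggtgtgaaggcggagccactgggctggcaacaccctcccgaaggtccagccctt
ITGA5: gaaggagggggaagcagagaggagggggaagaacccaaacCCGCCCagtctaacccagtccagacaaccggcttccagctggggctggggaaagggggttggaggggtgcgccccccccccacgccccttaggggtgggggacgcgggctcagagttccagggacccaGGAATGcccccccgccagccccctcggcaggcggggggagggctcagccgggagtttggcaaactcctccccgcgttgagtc
The ITGA2 window holds 4 Sp1 matches in 76.4% G and C, the ITGA10 window 1 TEAD match in 48.4% G and C, the ITGA5 window 1 Sp1 and 1 TEAD match, and the ITGA1 window no match. RefSeq windows were found for 22 of the 32 genes, 35 windows in all, and for 11 of the 15 that rose. ITGB3, ITGB4 and FERMT1 had none. The Sp1 letters were in 8 of the 14 windows of genes that rose (57.1%), in 19 of the 35 (54.3%) and in 42.6% of all 35116 promoter windows of that length. The TEAD letters were in 3 of the 14 (21.4%) and 5 of the 35 (14.3%), against 11.9% of all. The AP-1 letters were in 0 of the 14 and 2 of the 35 (5.71%), against 6.57% of all. These are matches of letters only.

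Among the chains that bind fibronectin and other ligands, ITGA5, the alpha chain of the classical fibronectin receptor, was the clearest rise. It had 7.38, 7.38 and 7.40 in shFRY samples, against 6.65, 6.51 and 6.49 in control samples (difference 0.84, SE 0.09, limma adjusted p = 0.000385). ITGA4, ITGA8 and ITGA9, known mainly from leukocytes, kidney mesenchyme and muscle or lymphatic tissue, did not pass, with differences of 0.24 to 0.33. All 3 had signals near or below the array median. One weaker ITGA8 probe set, 235666_at, did pass, with 1.48, 1.51 and 1.54 in shFRY samples and 1.23, 1.09 and 1.07 in control samples, all near the bottom of the array's range.

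**Figure D2:**
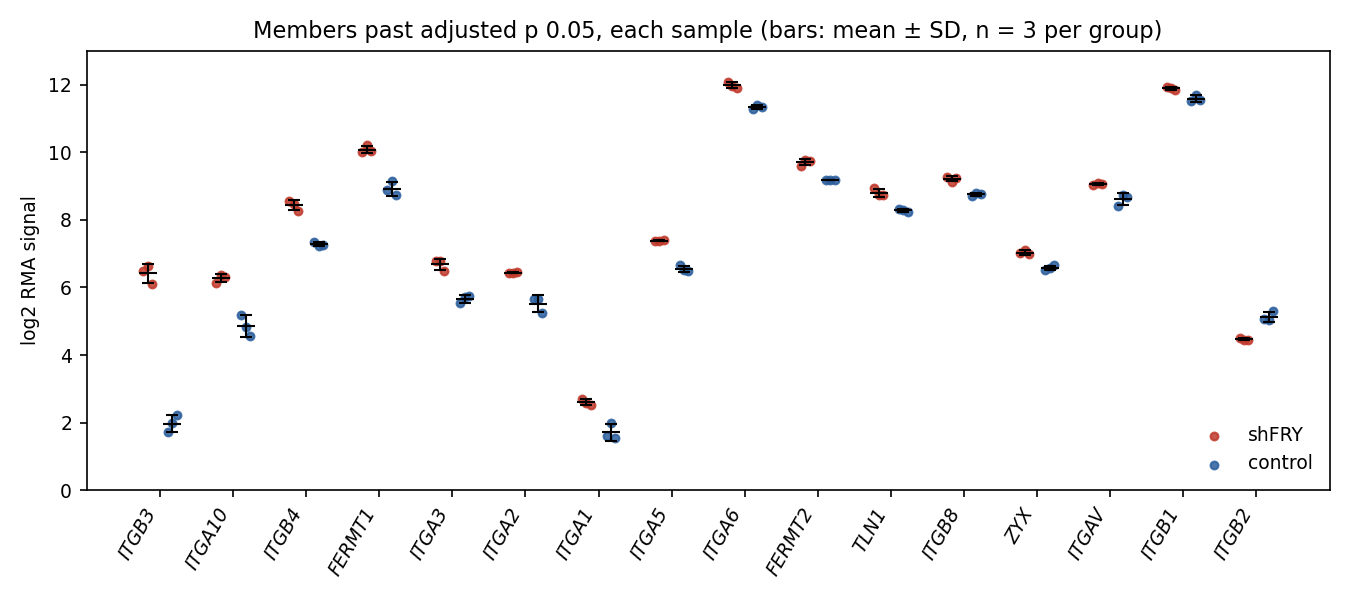
Log2 RMA signal (y axis) in each sample for the 16 genes past adjusted p 0.05, in order of log2 fold change, with shFRY samples in red left of control samples in blue and bars for the mean and SD (n = 3 per group). In all 16 genes the 2 groups are apart, ITGB3 by the widest gap and ITGB1 by the narrowest, and ITGB2 is the only gene with the shFRY samples below.

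ITGB1, the beta chain shared by most integrins including the collagen and fibronectin receptors above, was among the brightest genes and had the smallest called rise. It had 11.93, 11.91 and 11.84 in shFRY samples, against 11.52, 11.69 and 11.55 in control samples (difference 0.30, SE 0.10, limma adjusted p = 0.0469). All 7 of its probe sets were higher, by 0.15 to 0.64, and 2 of them passed over all probe sets. The ITGB1 call was lost without any 1 of the 6 samples (limma adjusted p = 0.0568 to 0.134). ITGB8, which pairs with alphav and activates latent TGF-beta, had 9.28, 9.13 and 9.25 in shFRY samples, against 8.71, 8.80 and 8.75 in control samples. It rose by 0.47 (SE 0.10, limma adjusted p = 0.00691), with 2 of 5 probe sets called, and missed the threshold as the mean of its probe sets (0.31, limma adjusted p = 0.0616). ITGB5, another alphav partner, was bright, averaged 8.95 ± 0.09 in shFRY and 8.85 ± 0.10 in control (SD, n = 3 each) and did not pass (difference 0.09, 95% confidence interval -0.14 to 0.33, limma adjusted p = 0.543). ITGB7, a leukocyte chain, averaged 3.61 in shFRY and 3.71 in control and did not pass (limma adjusted p = 0.751).

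ITGB2, the beta chain of the leukocyte integrins, was the only one of the 31 genes to fall. It had 4.50, 4.45 and 4.46 in shFRY samples, against 5.07, 5.03 and 5.31 in control samples (difference -0.67, SE 0.11, limma adjusted p = 0.00227). Its other 2 probe sets were at -0.32 and -0.59 and did not pass, with limma adjusted p-values of 0.110 and 0.0647 over all probe sets. Among its alpha partners, ITGAL, ITGAM and ITGAD were below the array median in every sample. ITGAX was close to that median of 3.04, with means of 2.95 in shFRY and 3.02 in control. None of 6 leukocyte and platelet alpha chains passed, among them the bright ITGAE (7.78 in shFRY, 7.99 in control). Of 7 leukocyte markers 1 fell, PTPRC, which encodes CD45 (2.13 in shFRY, 3.19 in control, limma adjusted p = 0.00598). The part of other cells in the ITGB2 signal was not tested.

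Of 5 genes for integrin activators and actin linkers 4 rose. FERMT1, which encodes the epithelial kindlin, had 10.00, 10.20 and 10.03 in shFRY samples, against 8.88, 9.15 and 8.74 in control samples. It rose by 1.15 (SE 0.13, limma adjusted p = 0.000380), and all 4 of its probe sets agreed closely, at 1.02 to 1.15. FERMT2, the widely expressed kindlin, had 9.60, 9.76 and 9.75 in shFRY samples, against 9.18, 9.17 and 9.17 in control samples, a rise of 0.53 (SE 0.10, limma adjusted p = 0.00371) found at all 3 probe sets (0.44 to 0.58). TLN1, which encodes talin, had 8.94, 8.74 and 8.72 in shFRY samples, against 8.33, 8.28 and 8.23 in control samples. Talin rose by 0.52 (SE 0.10, limma adjusted p = 0.00606) at the brightest probe set, while 2 dimmer ones did not pass (0.03 and 0.17), nor did the mean of its probe sets (0.24, limma adjusted p = 0.125). ZYX, which encodes the actin-linked protein zyxin, had 7.01, 7.10 and 6.98 in shFRY samples and 6.52, 6.58 and 6.65 in control samples, a rise of 0.45 (SE 0.10, limma adjusted p = 0.00880) with the second probe set at 0.44. VCL, which encodes vinculin, averaged 8.63 in shFRY and 8.41 in control and did not pass (0.22, limma adjusted p = 0.158). Its dimmer probe set did pass, at 0.51, with 3.55, 3.76 and 3.17 in shFRY samples, against 3.07, 2.97 and 2.91 in control samples.

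The kinase, scaffold and tetraspanin genes had no call among 7, and their differences lay between -0.27 and 0.10. PTK2, which encodes focal adhesion kinase, averaged 8.34 ± 0.05 in shFRY and 8.47 ± 0.02 in control (SD, n = 3 each), a difference of -0.12 with a 95% confidence interval of -0.33 to 0.08 (limma adjusted p = 0.355). For ILK the difference was -0.05 (-0.32 to 0.21), for PXN, which encodes paxillin, 0.10 (-0.15 to 0.35), for CD151 0.00 (-0.29 to 0.29) and for BCAR1, which encodes p130Cas, 0.01 (-0.23 to 0.24). These intervals leave out changes as large as those of FERMT1 or ITGB4 but not small ones. The remaining pair belongs to the ILK complex. LIMS1, which encodes PINCH, was represented only by dim probe sets, with means of 2.42 in shFRY and 2.68 in control (limma adjusted p = 0.0597), and 2 more probe sets that name it together with other genes were left out. PARVA, which encodes alpha-parvin, was at -0.26 (limma adjusted p = 0.140), and 1 of its 7 probe sets passed as lower: 235279_at had 2.41, 2.55 and 2.63 in shFRY samples, against 3.27, 3.58 and 3.19 in control samples.

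**Figure D3:**
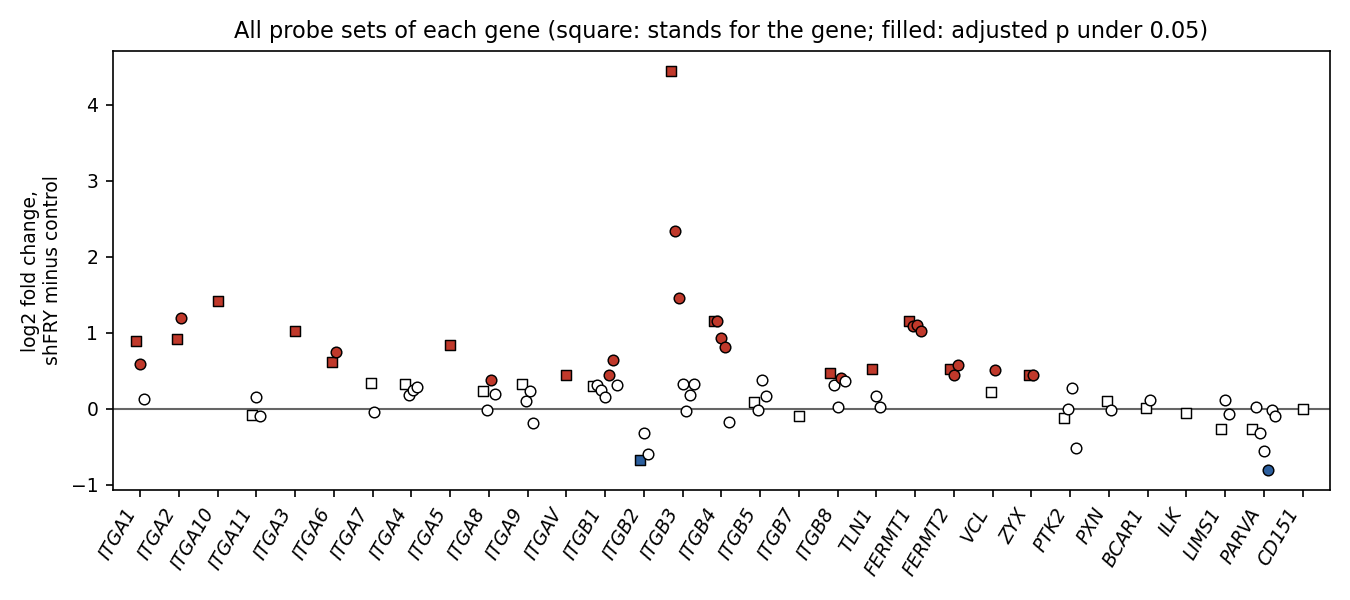
Log2 fold change, shFRY minus control, of all 94 probe sets (y axis) by gene (x axis); squares stand for the gene in the comparison and filled symbols passed an adjusted p of 0.05 over all probe sets. FERMT1 and FERMT2 probe sets lie close together, those of ITGB3 spread from -0.03 to 4.45, and the square of ITGB1 is open although the gene passed over all genes.

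Of 24 genes with several probe sets, 11 had probe sets of both signs, 2 among the called genes (ITGB3 and ITGB4) and 9 of the 12 others. Of the 94 probe sets, 33 were called higher and 2 lower, beside 10.9% and 12.2% of all probe sets on the array. For 12 called genes more than 1 probe set was present. In 10 of these a further probe set moved the same way past the threshold, and in 0 did one move the opposite way. The 2 without such a second call were ITGB2 and TLN1. The other 4 called genes, ITGA3, ITGA5, ITGA10 and ITGAV, had 1 probe set each. Of the 15 genes not called, ITGA8, VCL and PARVA had 1 called probe set.

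Other genes of the adhesion machinery were read from lists written from textbook knowledge, with earlier results of these data known. Over all genes 13.7% rose and 16.0% fell, and of genes above the median gene by mean signal 21.3% and 27.0%. Of 39 measured focal adhesion genes outside the 31, 11 rose (28.2%) and 8 fell (20.5%), with a median of 0.14. The largest differences were falls, of the talin-binding gene KANK2 by 1.71 (limma adjusted p = 3.62e-05) and the paxillin relative TGFB1I1 by 1.10. Next came a rise of 1.03 in LPXN, which encodes the paxillin relative leupaxin, and then GIT2, a paxillin partner, at -0.80. KANK2 had 8.03, 8.00 and 8.24 in shFRY samples, against 9.63, 9.86 and 9.90 in control samples. Of 30 measured matrix proteins that integrins bind, 14 rose (46.7%) and 3 fell (10.0%), with a median of 0.26. FN1, which encodes fibronectin, the ligand of alpha5beta1 and alphavbeta3, had 8.91, 8.87 and 8.79 in shFRY samples, against 5.65, 6.02 and 5.54 in control samples. With it rose POSTN (3.47), COL4A1 (2.47) and TGFBI (1.93), whose products bind alphav or collagen receptors. POSTN was read at an _s_at probe set, with means of 4.95 in shFRY and 1.48 in control. Its control signals were below the array median of 3.04 and were not shown to be above background. The 3 falls were the fibrillar collagen gene COL3A1 (-1.82, limma adjusted p = 0.00603) and the matricellular genes CCN2 (-1.42, 0.000241) and CCN1 (-0.47, 0.0134). COL3A1 and CCN1 were read at _s_at probe sets. Without _s_at and _x_at probe sets 13 genes of this list rose and 1 fell. Of 15 membrane proteins that associate with integrins 7 rose (46.7%) and 3 fell (20.0%), with a median of 0.03. The rises were led by the urokinase receptor gene PLAUR (2.50), the tetraspanin gene CD82 (1.98) and the syndecan genes SDC1 (1.15) and SDC4 (1.11). The falls were the tetraspanin gene CD9 (-0.76), LGALS3 (-0.47) and CAV1 (-0.43). CAV1 is also counted among the 39 focal adhesion genes. Among 3 measured hemidesmosome partners, LAMB3 of laminin-332 rose (1.71), DST fell (-0.48) and PLEC, which encodes plectin, did not pass (0.47, limma adjusted p = 0.0815). LAMB3 is also counted among the 30 matrix genes.

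**Figure D4:**
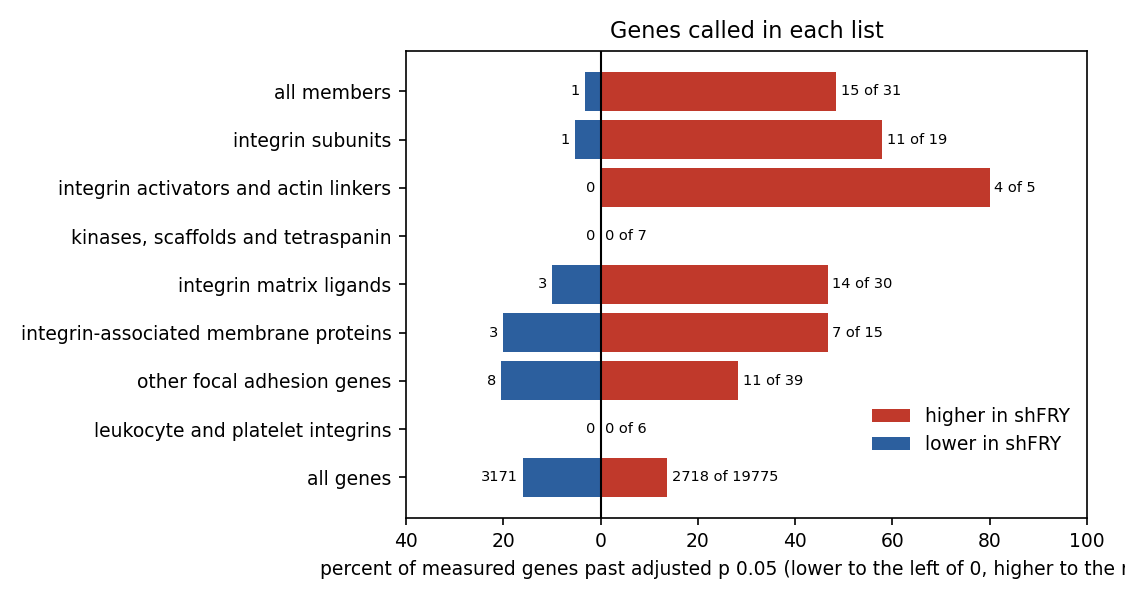
Percent of measured genes past adjusted p 0.05 in each list (x axis, lower in shFRY left of 0, higher right of 0), with counts beside the bars. Integrin subunits (11 of 19 higher) and activators with actin linkers (4 of 5) stand above the 2718 of 19775 of all genes, and the kinase and scaffold list has no bar.

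When the beta-actin 3' minus 5' value was added to the fit as a covariate, 6 of the 16 calls held: ITGB3 (3.90), ITGA10 (2.02), ITGA2 (1.33), FERMT1 (1.27), ITGB4 (1.21) and ITGA5 (0.99). The other 10 kept their direction, among them ITGA6 (0.55, limma adjusted p = 0.181), ITGA3 (0.77, 0.102), TLN1 (0.60, 0.165) and ITGAV (0.22, 0.621); over all genes 1026 passed in place of 5889. Without _s_at and _x_at probe sets 26 genes were left, of which 7 rose and 0 fell: ITGA10, FERMT1, ITGA2, ITGA1, ITGA5, ITGA6 and ITGAV.

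**Figure D5:**
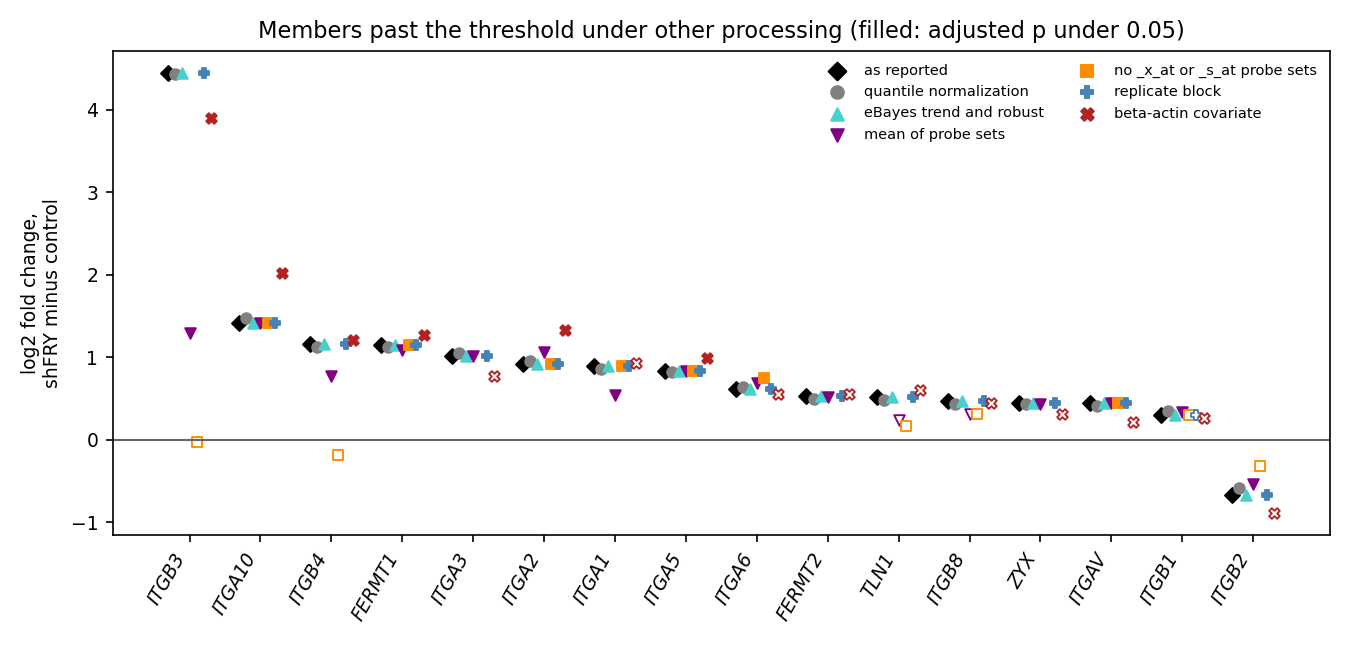
Log2 fold change (y axis) of the 16 called genes as reported and under 6 other settings, filled where the adjusted p stayed under 0.05. Only ITGB3 and ITGB4 cross 0, both without _s_at and _x_at probe sets, and most open symbols belong to the beta-actin covariate.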

How the data were processed

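The deposited values are log2 signals per probe set that the authors made with RMA, per the submitters' processing notes, with settings not stated there. RMA usually compresses differences of dim probe sets. The table was used as deposited. The platform annotation gave the gene names, with symbols updated through Entrez IDs to RefSeq (GRCh38.p14): of 54675 probe sets, 62 were controls, 41091 named 1 gene, 1801 several and 11721 none. Each of 19775 genes was represented by its brightest probe set over all 6 samples.

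The difference of shFRY and control was fitted by limma 3.58.1 (lmFit, eBayes, 4 residual degrees of freedom) under R 4.3.3. Benjamini-Hochberg adjustment ran over all genes, and the threshold was 0.05. Probe sets were tested in the same fit over all 54613. With 3 arrays a group precision is limited, and the 31 genes had a median SD of 0.09 in shFRY and 0.12 in control (log2, n = 3 each). The members and lists were chosen with earlier results of these data known. Sample values are given for each member past the threshold and for member probe sets that passed where the gene did not. Up to 4 called genes are named per other list. KANK2, FN1, ITGA2B, ITGAL, ITGAM, ITGAD, PLEC, KRT5, EPCAM, VWF, CDH5, PECAM1, COL3A1, CCN1 and CCN2 were given values after theirs were seen. The same holds for ITGAX, ITGAE, CD9, LGALS3 and CAV1. The script was tested on simulated data. Same-numbered samples did not deviate together (r at most 0.01 across genes). Alternatives were other normalizations, variance models, probe set choices, array weights, a replicate block, a beta-actin covariate and leaving out each sample.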

Additional observations from a re-analysis of the deposited data

How the results depend on the processing

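Under 15 alternatives the 31 genes gave 451 values, of which 397 kept their direction and side of the threshold. Without a change of sign, 25 lost a call and 8 gained one. The other 21 changed sign, and among them ITGB3 and ITGB4 also lost their call without _s_at and _x_at probe sets. The count of genes that rose was 7 without _s_at and _x_at probe sets and 6 with the beta-actin covariate, and otherwise 13 to 16. The count that fell was 0 in both of these settings and 2 with array weights, where LIMS1 joined ITGB2. The median difference of the genes was 0.46 among genes above the median signal, where 22 were left, 0.24 without _s_at and _x_at probe sets and 0.23 with the covariate. With the covariate 1026 genes passed over all genes, 11 genes of the adhesion lists rose and 2 fell, in place of 32 and 14. The residual degrees of freedom are fewer in this fit. Covariate values did not overlap between the groups, so the 2 cannot be fully told apart. Standard errors were wider, for ITGA6 0.20 in place of 0.10 and for ITGAV 0.21 in place of 0.11. The differences were 0.55 in place of 0.62 for ITGA6 and 0.22 in place of 0.45 for ITGAV. The cause of the lost calls was not tested.

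No pairing of replicate numbers is given in the labels. With the replicate block 5330 genes passed and 14 of the genes rose, ITGB1 being lost (limma adjusted p = 0.0857); of the FRY probe sets, 204072_s_at was lost (-0.75, 0.0522) and 1555904_at (-0.49, 0.0263) and 214319_at (-0.49, 0.0365) passed.

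FRY at 204072_s_at was -0.38 with the covariate and -0.91 to -0.57 with 1 sample left out. The ranges so obtained were -0.62 to -0.37 at 1555904_at, -0.42 to -0.24 at 214318_s_at and -0.69 to -0.24 at 214319_at, which was -1.03 with the covariate. Signs changed for ITGB3 (-0.03), ITGB4 (-0.18) and ITGA8 (-0.02) without _s_at and _x_at probe sets, CD151 (-0.01) after quantile normalization, ITGA11 (0.0079) with array weights, and ITGA11 (0.04), ITGA7 (-0.12), BCAR1 (-0.07) and ILK (0.27) with the covariate. With 1 sample left out, signs changed only for 5 genes that had not passed, ITGA11 (-0.27 to 0.02), ITGB7 (-0.22 to 0.11), CD151 (-0.05 to 0.10), BCAR1 (-0.06 to 0.05) and ILK (-0.16 to 0.02). ITGA1, ITGA4, ITGA7 and LIMS1 averaged below the array median in both groups, and no detection call was used, so their signal over background is not known.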
